A study of Arabidopsis thaliana with 3 samples.

Results

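The KANADI and YABBY genes are the transcription factor genes best known for marking the lower, or abaxial, side of plant lateral organs. The 10 studied here were chosen by locus, by a rule that uses no measured value, though with earlier results of these data known, and are 4 KANADI genes (KAN1, KAN2, KAN3 and KAN4) and 6 YABBY genes (YAB1, YAB2, YAB3, YAB5, CRC and INO). They are 10 of the 32678 loci counted, and each name matched the RefSeq symbol or synonym of its locus, RefSeq listing KAN1 as KAN, KAN4 as ATS and YAB1 as AFO. Their RNA was measured by strand-specific sequencing of 3 pools of inflorescence meristems from untreated plants of Arabidopsis thaliana Col-0, the standard laboratory wild type. Each pool came from 10 dissected shoot tips, stripped of flower buds down to the primordium stage P5, of plants grown for 4 weeks in short days (8 h light) and 2 weeks in long days (16 h light). The series has 1 group of 3 libraries and no mutant or treatment, so levels are compared between genes and between pools. Nothing in the labels tells if the pools came from separate growths or dissections, so the spread between them may be technical.

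KANADI proteins carry a MYB-like GARP DNA-binding domain, and KAN1 is known as a repressor of transcription. They act against the class III HD-ZIP genes, which mark the upper, or adaxial, side, and the opposition of both sets lets a leaf or floral organ grow flat. YABBY proteins pair a zinc finger with the YABBY domain, which binds DNA, and they recruit corepressors of the LEUNIG and SEUSS families. In the inflorescence, YAB1 (FILAMENTOUS FLOWER) and YAB3 are switched on in flower primordia as these leave the meristem flank, CRC (CRABS CLAW) acts in carpels and nectaries, and INO (INNER NO OUTER) acts in the outer integument of the ovule.

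Nuclear loci held 29078107, 28933042 and 27236559 counts in replicates 1, 2 and 3, and CPM is the usual scaling of a gene's counts by this total. Among tissue markers, 7 of 7 floral meristem and young flower genes and 4 of 5 shoot meristem genes reached 1 CPM in every pool, the exception being the stem cell gene CLV3 at 0.896 ± 0.207 CPM (SD, n = 3), while 0 of 4 pollen genes and 1 of 4 root genes (SCR, which shoots express too) did. Of 7 tapetum genes, AMS (58.3, 0.380 and 0.0367 CPM in replicates 1, 2 and 3) and ACOS5 (46.2, 0.415 and 0.0734 CPM) were high in replicate 1 and carried most of the summed 130, 23.2 and 25.3 CPM. DYT1 (14, 0 and 0 counts) and MYB80 (19, 1 and 0 counts) were also highest in replicate 1, though under 1 CPM in each pool. LAP6 was even (24.3, 22.4 and 25.2 CPM), and MS1 and CYP703A2 had no counts. The 3 light-harvesting and Rubisco genes taken as leaf markers, which green tissue in general expresses, were high at 4758 ± 188 CPM for CAB1, 3046 ± 315 for RBCS1A and 1339 ± 76.2 for LHCB5 (SD, n = 3 each). Leaves express YABBY genes too, and the part of leaf-like tissue in the levels below was not tested. Pollen markers summed to 3.13, 13.1 and 1.06 CPM in the same order. The main values of the YABBY and KANADI genes follow for every pool.

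Of the 10 genes, 9 reached 1 CPM in each of the 3 pools, against 63.2% of 26712 nuclear protein-coding genes, and INO had no count. To compare genes, CPM was divided by the length of each gene's exons and scaled to the same sum in each library (called TPM-like below). On that scale the order was YAB1, YAB3, CRC, YAB2, KAN1, KAN2, KAN3, YAB5, KAN4 and INO. The order was the same in all 3 libraries, and the ranges of neighbours over the 3 pools did not overlap at any of the 9 steps. The narrowest step, KAN1 above KAN2, was 0.38 ± 0.11 log2 units (SD, n = 3), and the widest between detected genes, YAB5 above KAN4, was 1.83 ± 0.27. The order depended in part on gene length. With CPM alone YAB2 and KAN1 exchanged places, with coding length in place of exon length KAN3 and YAB5 did, and under either of these 6 of the 9 steps were free of overlap. In whole tissue, fewer cells that express a gene and less RNA per cell cannot be told apart.

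**Figure D1:**
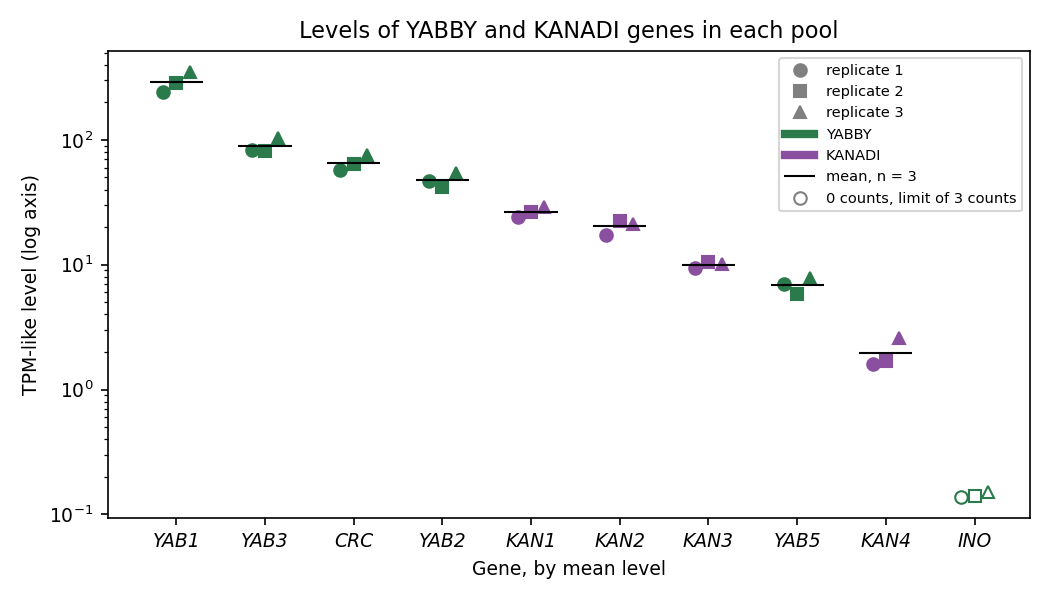
TPM-like level (log axis) of each YABBY and KANADI gene in replicates 1, 2 and 3, with the mean as a bar (n = 3) and genes ordered by mean. YAB1 averaged 293, KAN4 1.97, and INO had 0 counts, so its open symbols show the level that 3 counts would give.

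YAB1 (AT2G45190, chromosome 2, 18628252 to 18630779, minus strand, 7 exons), which specifies the abaxial side of floral organs and keeps meristem genes off in them, was the highest. It had 5296, 6191 and 7061 counts in replicates 1, 2 and 3, which are 182, 214 and 259 CPM. Replicate 3 was the highest and replicate 1 the lowest, by a ratio of 1.42, the widest ratio among the 6 members that averaged at least 10 CPM. Its TPM-like level of 293 ± 54.3 (SD, n = 3) lay above that of 97.1% of the expressed protein-coding genes.

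YAB3 (AT4G00180, chromosome 4, 72545 to 75576, minus strand, 7 exons), the close partner of YAB1 that acts redundantly with it, had 79.9, 77.6 and 98.1 CPM in replicates 1, 2 and 3. Replicates 1 and 2 lay close together and replicate 3 above both. Its TPM-like level was 88.7 ± 12.3 (SD, n = 3). Per unit length YAB1 RNA was 2.93, 3.55 and 3.40 times YAB3 RNA in the 3 pools. YAB1 and YAB3 proteins are the most alike of the YABBY proteins, with 144 identical residues, which is 62.9% of the shorter one.

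YAB2 (AT1G08465, chromosome 1, 2675813 to 2679824, plus strand, 6 exons) and YAB5 (AT2G26580, chromosome 2, 11303455 to 11307010, minus strand) act with YAB1 and YAB3 in leaves. YAB2 had 35.1, 30.9 and 40.1 CPM in replicates 1, 2 and 3, a TPM-like level of 47.7 ± 6.45 (SD, n = 3). YAB5 had 4.85, 4.01 and 5.36 CPM, a TPM-like level of 6.91 ± 1.02. Replicate 2 was the lowest and replicate 3 the highest for both, and the ratio of YAB2 to YAB5 per unit length stayed between 6.69 and 7.13. In percentile among expressed genes, YAB2 stood at 72.5 and YAB5 at 15.2. YAB5 is the shortest of the YABBY proteins at 164 residues.

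CRC (AT1G69180, chromosome 1, 26007350 to 26009141, minus strand, 7 exons) was the third highest. It had 1165, 1267 and 1398 counts in replicates 1, 2 and 3, or 40.1, 43.8 and 51.3 CPM, a TPM-like level of 65.4 ± 8.87 (SD, n = 3). Replicate 3 was again the highest. Replicate 1, the pool with high AMS and ACOS5, was the lowest, as it was for YAB1 and each KANADI gene. CRC shares 19 exon bases, 1.68% of its exons, with AT1G69170 on the opposite strand, which had 28.9, 29.6 and 26.5 CPM, with replicate 3 as its lowest. The strand setting of the counting is not given in the sources used here, so reads in those bases cannot be assigned with certainty.

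INO (AT1G23420, chromosome 1, 8317297 to 8319491, plus strand, 7 exons) had 0 counts in each pool. A level of 3 counts, taken here as an approximate and not absolute upper limit for a count of 0, corresponds to 0.103, 0.104 and 0.110 CPM (counting error only). Its neighbours on both sides were counted, AT1G23410 with 497, 506 and 411 counts and AT1G23440 with 647, 581 and 585. No other annotated gene overlaps INO, and none of the 1110 windows of 100 bases, the read length, in its transcript occurs elsewhere in the nuclear genome. Only exact matches to the unspliced genome were searched, which windows across exon junctions could hardly give.

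KAN1 (AT5G16560, chromosome 5, 5406863 to 5411766, minus strand, 6 exons), the founding member that with KAN2 sets abaxial identity in leaves and carpels, had 35.2, 38.7 and 41.5 CPM in replicates 1, 2 and 3. Its TPM-like level was 26.5 ± 2.39 (SD, n = 3), at percentile 51.2 of the expressed genes. An annotated lncRNA on the opposite strand, AT5G02555, covers 435 bases or 18.2% of KAN1 exons and has no row in the count files, and AT5G16550 covers 25 more. KAN2 (AT1G32240, chromosome 1, 11625616 to 11630745, minus strand, 6 exons) had 27.4, 34.9 and 33.1 CPM, with replicate 1 below the other pools, and a TPM-like level of 20.3 ± 2.63. KAN1 exceeded KAN2 by a ratio of 1.38, 1.19 and 1.35 per unit length.

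KAN3 (AT4G17695, chromosome 4, 9847933 to 9850927, minus strand, 6 exons), which acts with KAN1 and KAN2, had 8.12, 8.95 and 8.59 CPM in replicates 1, 2 and 3. It was the most even of the 9 detected genes, with a coefficient of variation of 4.90%, below the 6.42% that Poisson counting alone gives at its depth. KAN4 (AT5G42630, chromosome 5, 17073673 to 17075904, minus strand, 6 exons), known as ABERRANT TESTA SHAPE for its part in the inner integument of the ovule, was the lowest detected member. It had 47, 49 and 70 counts, or 1.62, 1.69 and 2.57 CPM. Replicates 1 and 2 were close and replicate 3 higher, and counting error alone gives a coefficient of variation of 13.4% at that depth, against 27.0% measured. Of these 2 integument genes, KAN4 thus had counts in all 3 pools and INO in none.

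As families, YABBY genes summed to 436, 478 and 590 TPM-like in replicates 1, 2 and 3, and KANADI genes to 52.4, 61.2 and 62.9. The YABBY sum was thus 8.32, 7.82 and 9.39 times the KANADI sum, a log2 ratio of 3.08 ± 0.13 (SD, n = 3) that was positive in 3 of 3 libraries. An exact two-sided sign-flip test gave p = 0.25, which is the smallest value 3 libraries allow. As a mean per gene the log2 ratio was 2.50, and with no length correction it was 2.26. YAB1 alone was 10.1, 10.8 and 12.2 times KAN1 per unit length.

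Within each family the leading gene held a similar share in every pool. YAB1 held 55.5%, 59.9% and 59.3% of the YABBY sum in replicates 1, 2 and 3, and YAB3 held 18.9%, 16.9% and 17.4%. CRC held 13.1 ± 0.311%, YAB2 9.57 ± 1.07% and YAB5 1.39 ± 0.199% (SD, n = 3 each). KAN1 held 45.8%, 43.5% and 45.7% of the KANADI sum, KAN2 34.5 ± 1.75%, KAN3 17.1 ± 0.930% and KAN4 3.33 ± 0.715%. In both families 1 member led in each pool and the same order of members followed.

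**Figure D2:**
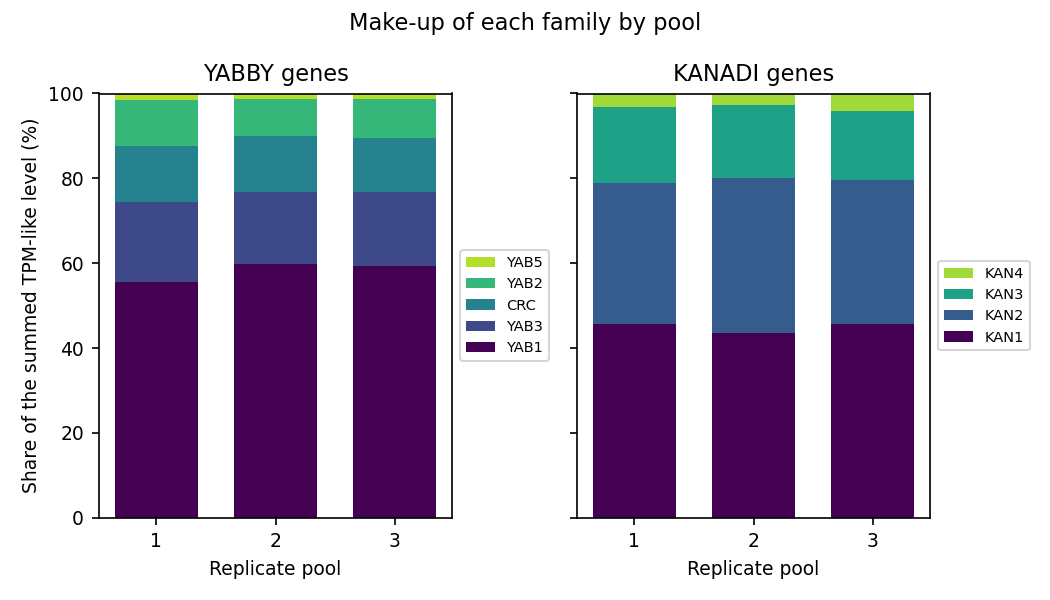
Share (%) of each gene in the summed TPM-like level of its family in replicates 1, 2 and 3, with YABBY genes on the left and KANADI genes on the right; INO is at 0. YAB1 holds between 55.5% and 59.9% of the YABBY sum and KAN1 between 43.5% and 45.8% of the KANADI sum.

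To show how separable the members are for the counting, the longest stretch shared by the transcripts of the most alike YABBY pair and of the leading KANADI pair is given here in full, read from RefSeq TAIR10.1.
YAB1 and YAB3: gaggagatccaacgtat
KAN1 and KAN2: gttcttgagctcatggatgt
These runs are 17 and 20 bases long and lie in coding sequence, and no pair within a family shared a run longer than 20 bases. None of the windows of 100 bases in the 10 transcripts was found in another member or elsewhere in the nuclear genome. Only exact matches were searched, and outside the members only in the unspliced genome. Proteins, translated from the TAIR10.1 coding sequences, were 33.8% (YAB3 and INO) to 62.9% identical among YABBY members and 37.0% (KAN3 and KAN4) to 49.7% (KAN2 and KAN3) among KANADI members.

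**Figure D3:**
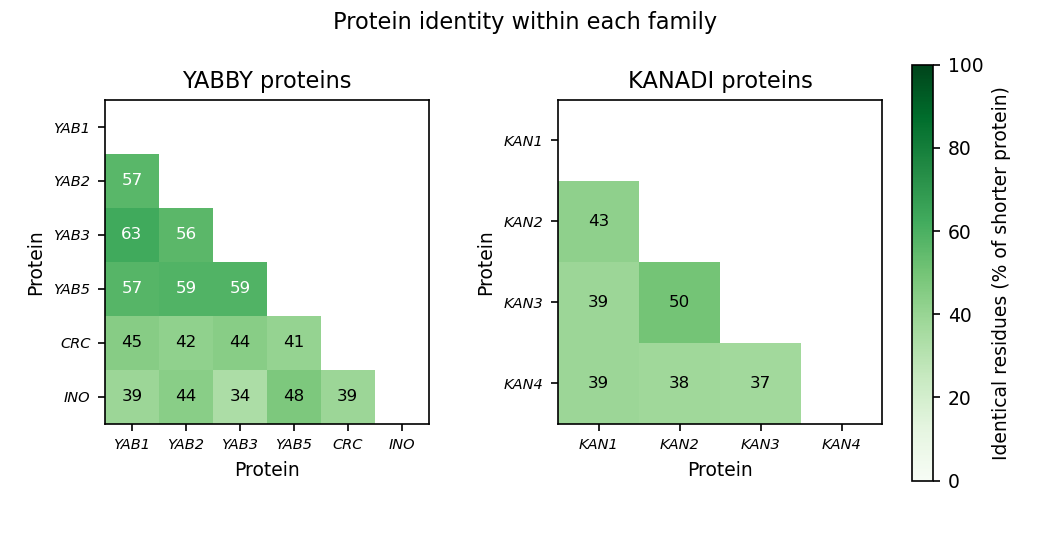
Identical residues as a percentage of the shorter protein for each pair of YABBY proteins (left) and KANADI proteins (right), by global alignment. CRC and INO are at most 47.6% identical to any other YABBY protein, while YAB1, YAB2, YAB3 and YAB5 are 56.0% to 62.9% identical to each other.

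The 250 bases before the gene start of the highest YABBY gene, the carpel gene CRC and the highest KANADI gene are shown because YAB1 and KAN1 lead their families and CRC is the carpel member. They were read from RefSeq TAIR10.1 and are written 5′ to 3′ on the gene's strand. Capitals mark GAATAA or GAATAT, or either one's reverse complement, the letters known to be bound by KAN1.
YAB1 (chr2:18630780-18631029, minus strand): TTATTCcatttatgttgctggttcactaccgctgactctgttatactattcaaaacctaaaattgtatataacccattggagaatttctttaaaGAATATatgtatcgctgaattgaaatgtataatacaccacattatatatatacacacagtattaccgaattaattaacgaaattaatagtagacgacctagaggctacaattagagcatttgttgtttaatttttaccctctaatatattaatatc
CRC (chr1:26009142-26009391, minus strand): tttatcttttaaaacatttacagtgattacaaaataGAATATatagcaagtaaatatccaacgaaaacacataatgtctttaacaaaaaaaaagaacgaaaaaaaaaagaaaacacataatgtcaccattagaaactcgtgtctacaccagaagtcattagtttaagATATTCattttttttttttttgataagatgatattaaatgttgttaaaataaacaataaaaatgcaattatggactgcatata
KAN1 (chr5:5411767-5412016, minus strand): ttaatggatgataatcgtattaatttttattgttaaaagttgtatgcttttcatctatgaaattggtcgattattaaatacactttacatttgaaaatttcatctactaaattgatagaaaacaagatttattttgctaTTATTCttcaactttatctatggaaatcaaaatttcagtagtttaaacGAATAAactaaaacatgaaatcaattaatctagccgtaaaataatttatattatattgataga
YAB1, CRC and KAN1 each had 2 matches. Of the 9 windows examined, those of the detected members, 6 had a match (also YAB3, KAN3 and KAN4), against 41.9% of 26711 windows of the same length. The letters CCANTG, the core known to be bound by LFY, were in 3 windows (YAB1, YAB3 and KAN4), against 20.8% of all windows. The CArG box of MADS-domain proteins was in 0 of the 9 windows, against 2.55% of all. Both strands were searched, GAATAA and GAATAT cannot match at the same position of 1 strand, and matches of different motifs were allowed to overlap. The 9 windows held between 70.0% and 78.8% A and T. The 26711 windows include those of genes that were not detected, and their A and T content was not measured. No excess can thus be read from these shares, and a match is no evidence of binding.

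Across the pools, all 5 detected YABBY genes and 2 KANADI genes (KAN1 and KAN4) were highest in replicate 3, that is 7 of the 9 detected members, against 23.0% of the 16875 expressed protein-coding genes. KAN2 and KAN3 were highest in replicate 2, as were 43.9% of those genes, and 0 members were highest in replicate 1, as were 33.1%. With TMM or DESeq2 scaling, KAN3 joined them, and 8 of 9 stood against 32.3% and 33.5% of the genes. YABBY genes deviated from their own mean by between 0.19 (YAB5 and YAB2) and 0.26 (YAB1) log2 units in replicate 3. The 7 young flower markers were all highest in replicate 3 as well and summed to 635, 623 and 728 CPM in replicates 1, 2 and 3, with none at 0, while the 5 shoot meristem markers summed to 195, 287 and 224 CPM, mostly STM and KNAT1, which were highest in replicate 2. The other 3 meristem markers, WUS, CLV3 and TFL1, were highest in replicate 3. The part of these tissues in the YABBY values was not tested. Of the 11 corepressor genes described below, 7 were highest in replicate 3 too. Of the 11 other polarity genes described below, 5 were highest in replicate 3 and 6 in replicate 2.

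**Figure D4:**
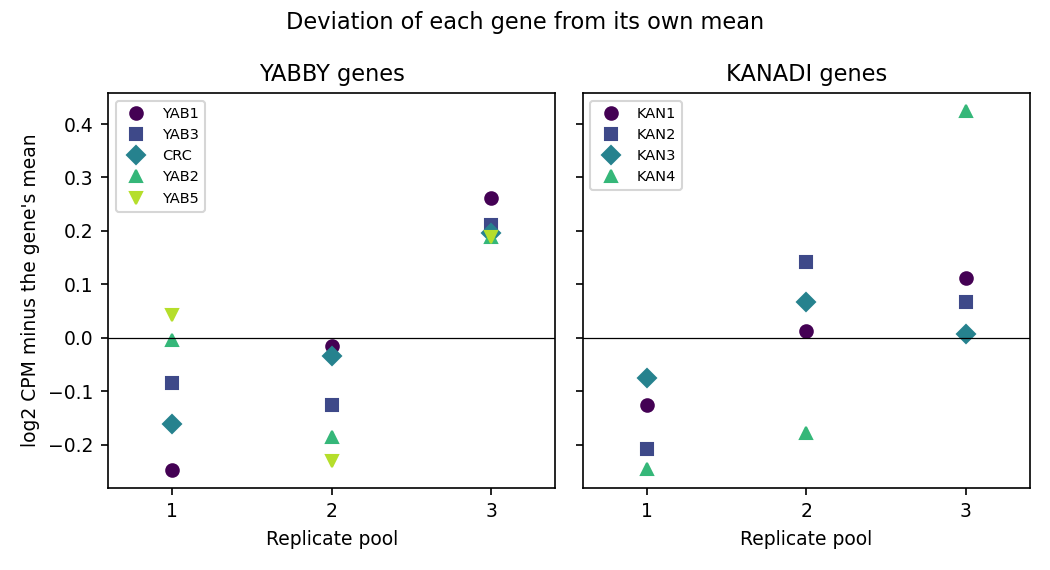
Deviation of log2 CPM from the gene's own mean in replicates 1, 2 and 3, for YABBY genes (left) and KANADI genes (right); INO, with no counts, is not drawn. All 5 YABBY genes lie above 0 in replicate 3, and KAN4 shows the widest deviation there at 0.42.

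The differences between pools did not pass the test of spread. edgeR's goodness-of-fit test against the dispersion trend was fitted on 18334 nuclear genes and adjusted by Benjamini-Hochberg. It called 0 of the 9 members tested as varying between pools, against 2.52% of all genes. An unadjusted p under 0.05 was found for 0 members, against 1107 of the 18334 genes. DESeq2 marked 0 members as dispersion outliers, against 1.52% of genes. On simulated data the edgeR test recovered only 36 of 100 planted 2-fold changes in 1 library. The highest CPM of a member was at most 1.59 times its lowest (KAN4). The test could thus miss changes of this size, and 0 calls do not show that the members are even. The biological coefficient of variation ran from 0.115 for KAN1 to 0.276 for KAN4, and it was 0.163 for YAB1 against a trend of 0.144. Set against Poisson variation alone, 8 of the 9 passed, KAN3 being the exception, but so did 61.0% of all genes. By the distance between centred log2 CPM profiles, the 3 genes closest to YAB1 among 13438 were AT1G64530 (27.7, 32.7 and 39.2 CPM), SPL8 (AT1G02065; 96.2, 112 and 134 CPM) and the formate dehydrogenase gene FDH (AT5G14780; 38.8, 44.6 and 54.8 CPM), at root-mean-square distances of 0.0048, 0.013 and 0.014 log2 units. This likeness rests on 3 libraries.

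Of 11 other genes of organ polarity, 11 reached 1 CPM in every pool. The median TPM-like level was 56.6 for the 6 YABBY genes and 15.2 for the 4 KANADI genes, against 68.8 for these 11 and 25.6 for expressed protein-coding genes. None of the 11 varied beyond the trend (edgeR, as above). The class III HD-ZIP genes REV, PHB, PHV, CNA and ATHB8, the adaxial counterparts, summed to 213, 288 and 276 TPM-like in replicates 1, 2 and 3. Replicate 1 was the lowest for this sum, for the YABBY sum and for the KANADI sum, though YAB2, YAB3 and YAB5 were each lowest in replicate 2. On the TPM-like scale the YABBY sum was higher than the class III HD-ZIP sum by 0.95 ± 0.19 log2 units. The KANADI sum was lower, at -2.13 ± 0.10 log2 units (SD, n = 3 each). The YABBY excess depended on length correction. With none, the YABBY sum averaged 389 CPM. REV (148 CPM), PHB (143), CNA (107), PHV (104) and ATHB8 (21.7) were together higher than that. ETT and ARF4, auxin response factors that act with KANADI proteins on the abaxial side, stood at 110 ± 12.1 and 70.0 ± 8.49 TPM-like, above each KANADI gene. AS1, which acts with AS2 in leaf polarity, stood at 126 ± 12.2 TPM-like. AS2, known as a direct target of KAN1 repression, stood at 3.76 ± 0.558, the lowest of the 11. The part of KAN1 in the AS2 level was not tested.

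The corepressors that YABBY or other repressing factors recruit were all present, 11 of 11, with a median of 57.1 TPM-like. LUG and LUH, of the LEUNIG family, averaged 97.6 ± 8.84 and 82.5 ± 3.82 TPM-like, their SEUSS-type partners SEU and SLK2 53.8 ± 2.12 and 57.1 ± 1.53, and TPL, the TOPLESS corepressor, 119 ± 9.44 (SD, n = 3 each). SLK3 was the lowest at 14.9 ± 0.631. YAB1 was thus higher per unit length than each of these 11, and KAN3, YAB5, KAN4 and INO lower than each.

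Among genes that regulate CRC or INO or act with them, LFY, AP3, PI and SEP3 ran between 101 and 145 TPM-like, and AG, the carpel identity gene upstream of CRC, averaged 33.0 ± 5.29 (SD, n = 3), below CRC. With no length correction AG and CRC were closer. AG had 40.3, 36.2 and 48.8 CPM in replicates 1, 2 and 3, against 40.1, 43.8 and 51.3 for CRC. SPT, a carpel margin gene, averaged 50.9 ± 3.46 TPM-like. SUP, which confines INO in the ovule, averaged 4.66 ± 1.08, and BEL1, an ovule gene needed for INO expression, had 33, 9 and 29 counts and did not reach 1 CPM in every pool, so 7 of these 8 genes did. Of 5 further carpel and ovule genes, 3 did, namely ANT, SHP1 and SHP2. ANT, active in all young floral organs, stood at 182 ± 21.0 TPM-like, SHP1 and SHP2 at 1.66 ± 0.0466 and 3.47 ± 1.32, and STK, the ovule identity gene, had 11, 0 and 0 counts. CRC stood above SHP1 and SHP2 in each pool, while STK, like INO, had no count in replicates 2 and 3.

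**Figure D5:**
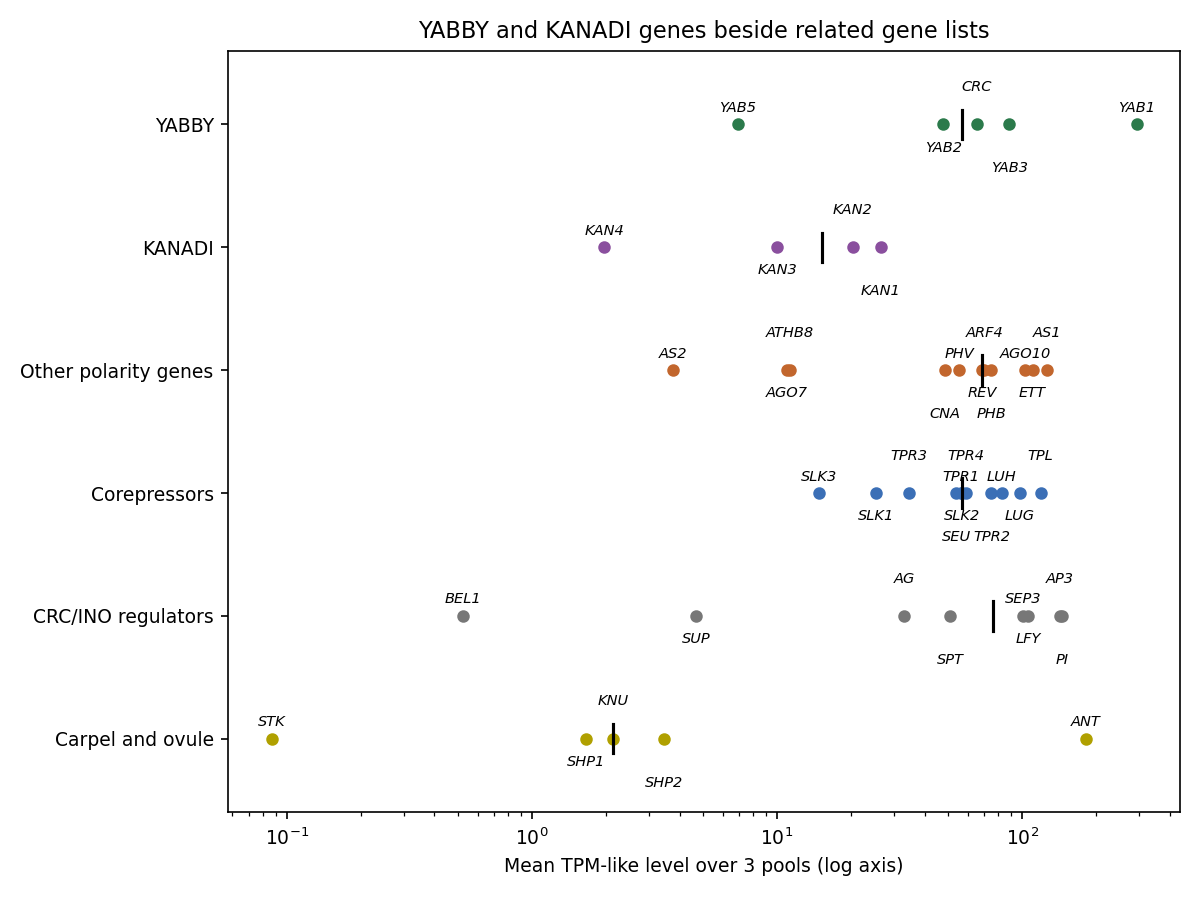
Mean TPM-like level over the 3 pools (log axis) of the YABBY and KANADI genes, other polarity genes, corepressors, regulators of CRC and INO, and carpel and ovule genes; short bars are list medians. INO, at 0, is counted in the YABBY median of 56.6 but not drawn, and BEL1, STK and KAN4 are the lowest of their lists among genes with counts.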

How the data were processed

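Per the labels' protocols, RNA from 3 pools of 10 inflorescences was made into strand-specific TruSeq libraries and sequenced as read pairs of 100 bp. The deposited values are raw counts per locus, 1 column per library, with 29094404, 28948463 and 27254114 counts in all. The submitters' processing notes name HTSeq 0.6.1, TopHat2 2.1.0, Bowtie2 2.2.5 and FastQC, and the build TAIR10. The sources used here do not give the annotation release, the strand setting or the handling of reads with several places. Lines without a gene name numbered 0. The 279 organelle loci were left out, leaving 32399 nuclear loci, of which 31904 had exon lengths in RefSeq TAIR10.1, whose coordinates and sequences are used here. CPM used nuclear counts, and TPM-like levels used the union of exons.

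Variation was tested with edgeR 4.0.16 (R 4.3.3, TMM factors 1.00, 1.02 and 0.978, filterByExpr, intercept only, chi-square with 2 degrees of freedom, adjusted p under 0.05), with DESeq2 1.42.0 as an alternative. On simulated data for that test over 18334 genes, 36 of 100 planted 2-fold and 92 of 100 planted 4-fold changes in 1 library were recovered. The upstream window of 1 member is not reported here. Protein alignments used Biopython 1.88 with BLOSUM62. Replicate numbers come from the sample titles, and 1 group gives no comparison between groups. The members and lists were chosen with earlier results of these data known. All 10 members are named, and some genes of each list are named as examples beside the list's counts; the genes most like YAB1 come from a fixed rule (the most variable member of at least 10 CPM and its 3 nearest genes). Floors of 3 counts and Poisson values cover counting error only, since reads carry no molecular identifiers.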

Additional observations from a re-analysis of the deposited data

How the results depend on the processing

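The number of detected members (9 of 10) was the same at 0.5 CPM, at 10 counts, at 1 TPM-like, with TMM or DESeq2 scaling and without each pool in turn, and it was 7 at 5 CPM, where KAN4 and YAB5 also dropped out. Of all nuclear protein-coding genes, 54.9% passed at 5 CPM and between 63.2% and 67.1% at the other settings. The number of members called as varying between pools was 0 under each setting run except Poisson variation alone, with 8. The settings with 0 were library size alone, DESeq2 size factors, no filter, 10 CPM, DESeq2 dispersion outliers, and without each pool. Of all genes, these settings called between 1.16% (without replicate 3) and 2.50% (DESeq2 size factors), and Poisson variation alone called 61.0%. The Poisson model holds no variation between pools. The log2 ratio of YABBY over KANADI sums stayed positive, from 2.26 (no length correction) to 3.14 (without replicate 2). YAB1's share of the YABBY sum was 53.5% with coding length, and it ran from 57.4% to 59.6% without each pool. KAN1's share of the KANADI sum was 47.7% with no length correction, and 44.6% to 45.8% without each pool. Both moved beyond 1 SD through the lengths used. CPM levels of single members moved by less than 1 SD. The count of members highest in replicate 3 under other scalings was chosen after seeing the data. No paired analysis was possible because there is 1 group. Depth limits KAN4 and INO most.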
